A study of Homo sapiens with 12 samples.

Results

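The messenger RNAs of 8 enzymes that make thymidylate, charge folates with glutamate or supply deoxynucleotides were followed through the study: TYMS, DUT, SHMT1, FPGS, GGH, RRM1, RRM2 and RRM2B. They were chosen by gene symbol, 8 of 60580 genes listed in the count files, and all 8 passed the filter on low counts. HCT116 is a human colorectal cancer cell line with functional p53. *WT* cells were single-cell clones that had received the empty pSpCas9 vector, whereas *miR-34a/b/c-KO* (abbreviated *KO*) clones, also grown from single cells, had lost the miR-34a and the miR-34b/c locus to CRISPR/Cas9, so that clonal selection was common to both genotypes. Each genotype was treated for 48 h with DMSO, the solvent control, or with 5-fluorouracil (5-FU) at 4 µM, which gave 4 groups and 12 labelled libraries. The file labelled as replicate 1 of *WT* cells with 5-FU was identical in all 60580 genes to replicate 3 of *WT* cells with DMSO, and was left out. The 11 libraries analysed were therefore 3 per group, except for *WT* cells with 5-FU, where 2 remained (replicates 2 and 3). Whether replicates of a genotype were different clones is not stated in the sources used here, so the p-values measure only the spread between these libraries.

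Thymidylate synthase (TYMS) methylates dUMP to dTMP with the folate cofactor 5,10-methylenetetrahydrofolate, and is the classical target of 5-FU, because the 5-FU metabolite FdUMP forms a stable complex with the enzyme and this cofactor. DUT cleaves dUTP to dUMP, which keeps uracil out of DNA and feeds thymidylate synthase. SHMT1 produces the cofactor from serine in the cytosol, FPGS adds the glutamate tail that retains folates and antifolates in the cell, and GGH removes it. Ribonucleotide reductase makes all deoxynucleotides from ribonucleotides. Its large subunit RRM1 pairs with RRM2, the small subunit of proliferating cells, or with RRM2B, a small subunit encoded by a p53 target gene. In bulk RNA, fewer cells that express a gene and less RNA per cell cannot be told apart.

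The miRNAs deleted in the *KO* cells silence messenger RNAs that pair with their seed. The mature sequences that RefSeq (GRCh38.p14) gives for miR-34a-5p and miR-34b-5p are shown because they define the genotype (miR-34c-5p is not shown), with the seed (bases 2 to 8) in capitals.
hsa-miR-34a-5p: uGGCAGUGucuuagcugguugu
hsa-miR-34b-5p: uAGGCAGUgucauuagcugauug
The 7 letters that pair with the miR-34a seed, CACTGCC, occurred once in the MANE Select 3′ untranslated region of SHMT1 (from base 411 of 877) and in that of none of the other 7 enzymes. Among 18780 such regions, of 1088 bases in the median, 15.7% held them. The site is shown with the paired letters in capitals.
SHMT1 site: agcttgtacaCACTGCCccctcactat
The neighboring match ACTGCCA, to bases 2 to 7 followed by A, occurred once in TYMS. Of all such regions, 21.1% held either match. Matches to the seed of miR-34b, whose letters differ, were not searched. The matches given are descriptions of letters only.

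The promoters were inspected for 3 short words, in either orientation, within the 250 bases before each RefSeq start: E2F words (TTTCCCGC, TTTGGCGC, TTTCGCGC or TTTGCCGC), CCAAT boxes (CCAAT) and CHR elements (TTTGAA or TTCGAA). Of 35116 promoters, 2.79% held an E2F word, 32.0% a CCAAT box and 14.3% a CHR element. TYMS held 1 E2F word. DUT held 2, at the last of its 4 listed starts, besides 2 CHR elements. RRM2 held no E2F word but 3 CCAAT boxes at its first listed start, and RRM1 held 1 CCAAT box and 1 CHR element. SHMT1 held 2 CCAAT boxes. FPGS held 1 and 2 CCAAT boxes at its first 2 listed starts and none of the words at the third. GGH and RRM2B were not looked up, as the promoter table used here does not list them. Stretches of the promoters of both thymidylate enzymes and of the reductase subunits RRM1 and RRM2 are shown, since these 4 genes had the clearest words or the clearest differences after 5-FU. They lie on the plus strand upstream of the start and end at the base before it, except that of DUT, which covers only bases 45 to 17 before the start. Capitals mark the words, and reverse matches read GCGGGAAA for TTTCCCGC.
TYMS, chr18:657503-657652: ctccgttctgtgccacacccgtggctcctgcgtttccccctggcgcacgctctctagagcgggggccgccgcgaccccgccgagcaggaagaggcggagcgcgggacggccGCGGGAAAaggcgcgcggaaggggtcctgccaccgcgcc
DUT, chr15:48332152-48332180: ctgGCGGGAAAtttcggtTTTGGCGCgct
RRM1, chr11:4094535-4094684: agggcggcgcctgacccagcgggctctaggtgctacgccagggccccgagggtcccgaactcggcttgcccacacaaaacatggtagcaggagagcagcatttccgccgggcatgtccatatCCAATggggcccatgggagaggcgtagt
RRM2, chr2:10122609-10122738: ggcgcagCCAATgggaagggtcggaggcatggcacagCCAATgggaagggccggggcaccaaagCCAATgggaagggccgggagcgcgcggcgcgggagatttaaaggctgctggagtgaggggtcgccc
The 3 boxes of RRM2 were each followed by the letters GGGAAGGG, whereas the box of RRM1 was followed by GGGGCCCA. No experiment in this study measured binding to these stretches.

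The libraries held 22831415 to 39064210 counts, and each of the 8 genes had between 862 and 20580 counts in every library. The biological coefficient of variation fitted over all genes was 6.72%. Levels below are CPM (read counts scaled to a common library total) on totals adjusted by their upper quartile. Fold changes are log2 values from 1 edgeR fit over 16123 genes, with their standard error (SE) and a Benjamini-Hochberg false discovery rate (FDR). A gene "passed" at FDR under 0.05, and was called with, in addition, a fold change over 1.5. The rows MIR34A, MIR34B and MIR34C were at 0 counts in every library, so the deletion could not be checked in these files. The host transcript MIR34AHG had 101 to 185 counts in untreated *WT* libraries, 450 to 655 in *WT* with 5-FU, 514 to 675 in untreated *KO* and 1563 to 1771 in *KO* with 5-FU. The epithelial markers EPCAM, CDH1, KRT8, KRT18, KRT19, CLDN4 and CDX2 were abundant, VIL1, CDX1 and LGALS4 had between 0 and 53 counts, and PTPRC, CD3E, COL3A1, DCN, PECAM1 and CDH5 never exceeded 9 counts. The summed levels of these lists were higher with 5-FU in both genotypes, without a test: those of the epithelial markers went from between 5486 and 5619 CPM to between 11530 and 12530 CPM in *WT* and from between 5762 and 5858 CPM to between 9425 and 9934 CPM in *KO* cells. The 4 leukocyte markers, nearly all counts of CD68 (420 to 1398), went from between 15.3 and 18.9 CPM to between 34.1 and 36.2 CPM in *WT* and from between 19.4 and 21.3 CPM to between 35.5 and 37.2 CPM in *KO* cells. The 4 fibroblast markers (COL1A1 had 492 to 2311 counts) went from between 21.05 and 26.3 CPM to between 49.8 and 59.7 CPM in *WT* and from between 45.6 and 50.1 CPM to between 73.6 and 75.2 CPM in *KO* cells, so that they were also higher in untreated *KO* than in untreated *WT* libraries. The 3 endothelial markers (VWF had 22 to 236 counts) went from between 1.305 and 1.47 CPM to between 6.12 and 6.35 CPM in *WT* and from between 1.003 and 1.19 CPM to between 1.80 and 1.95 CPM in *KO* cells. The part of other cell types in the results was not tested.

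**Figure D1:**
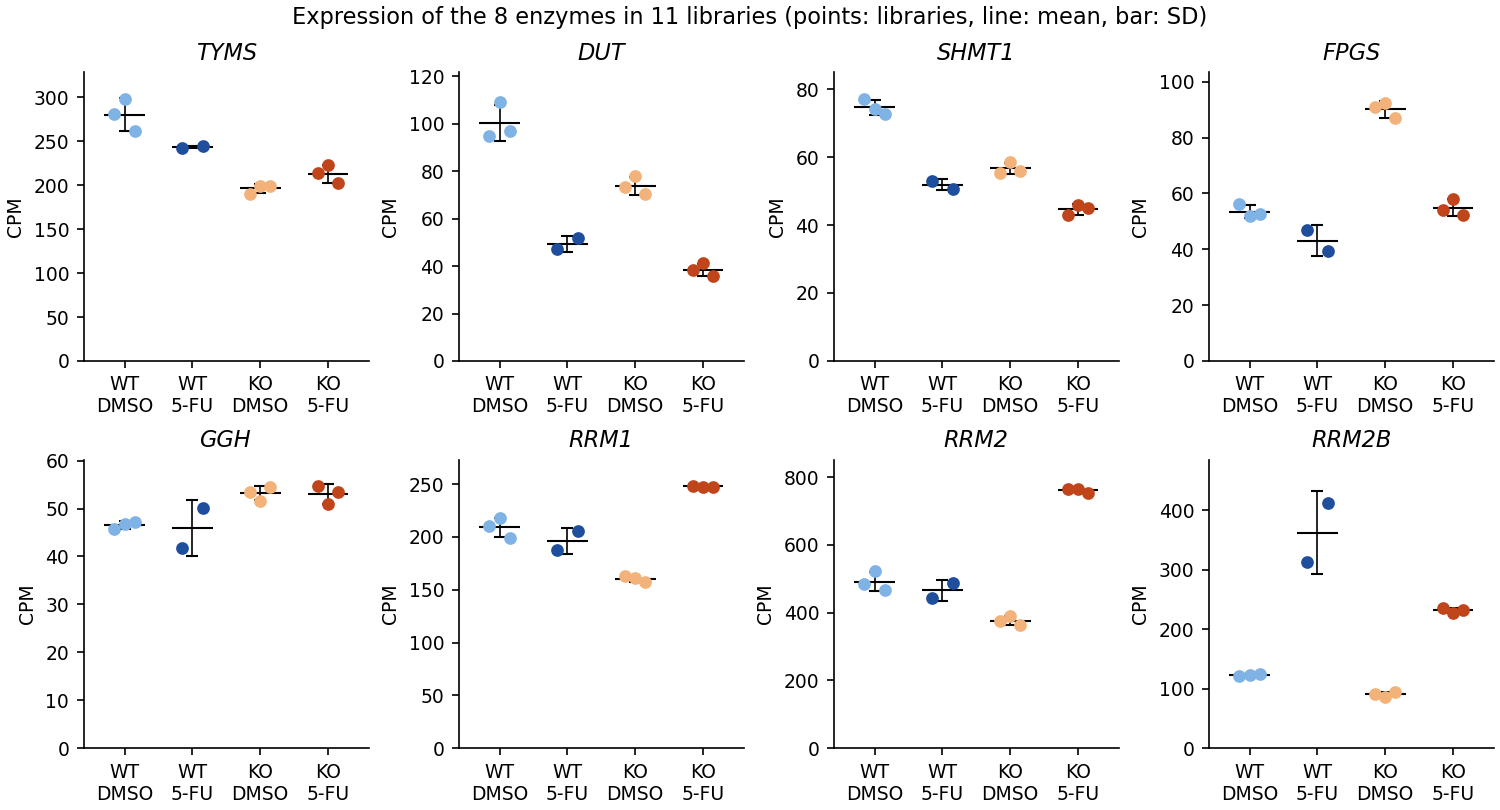
CPM of each enzyme (vertical axes, from 0) in 11 libraries of 4 groups. Points are libraries, lines means and bars SD. RRM2B lay at 313.0 and 411.8 CPM in *WT* cells with 5-FU against at most 124.6 in untreated *WT* cells, and RRM2 at 753.6 to 766.2 CPM in *KO* cells with 5-FU against at most 522.4 in any other library.

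First, it was asked how each genotype responded to 5-FU. In *WT* cells, 1 of the 8 enzymes, RRM2B, was called higher and 1, DUT, was called lower. In all genes tested, 18.5% were called higher and 9.38% lower. Of the other 6, TYMS, SHMT1 and FPGS fell with a fold change under 1.5, so that 4 enzymes passed in the lower and 1 in the higher direction, beside 28.3% and 31.9% of all genes. GGH, RRM1 and RRM2 did not pass. In *KO* cells, 3 enzymes were called higher (RRM1, RRM2 and RRM2B) and 2 lower (DUT and FPGS), where 13.3% and 12.0% of all genes were called. SHMT1 fell by less than 1.5-fold, which made 3 passing in either direction, beside 26.6% higher and 33.8% lower among all genes. The median log2 fold change over the 8 enzymes was −0.15 in *WT* and 0.06 in *KO* cells, against 0.03 and −0.06 over all genes tested. The study's own pipeline used RUVg, which estimates unwanted variation from control genes. Its number of factors and its control genes are not stated. Here, 1 such factor was taken from 11123 control genes, those left without the 5000 of smallest p-value between the groups. Since 5143 genes passed higher in *WT* cells alone, these controls held genes that respond to 5-FU. With this factor, no enzyme was called in either 5-FU comparison (3 and 5 of the 8 had an unadjusted p under 0.05). Over all genes, only 3 and 0 (*WT*) and 1 and 0 (*KO*) were called higher and lower. Of the variance of that factor, 98.2% lay between the treatments, so this fit cannot tell the factor from 5-FU.

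For the difference between these responses, the interaction of genotype and 5-FU was tested. RRM1 and RRM2 were called with a higher response in *KO* cells and no enzyme with a lower one (0 with DESeq2 as well), beside 3.42% and 6.66% of all genes. The split over all genes moved with the scaling, from 551 called higher and 1073 lower to 676 and 844 with TMM factors and 703 and 674 with DESeq2, while the calls of RRM1 and RRM2 were unchanged under both. With 1 RUVg factor, RRM2 was still called, whereas RRM1 passed at under 1.5-fold (0.53, FDR = 0.00573). TYMS passed in the higher and FPGS in the lower direction at under 1.5-fold, which gave 3 and 1 enzymes beside 10.1% and 16.0% of all genes. The interactions of DUT, SHMT1, GGH and RRM2B did not pass.

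**Figure D2:**
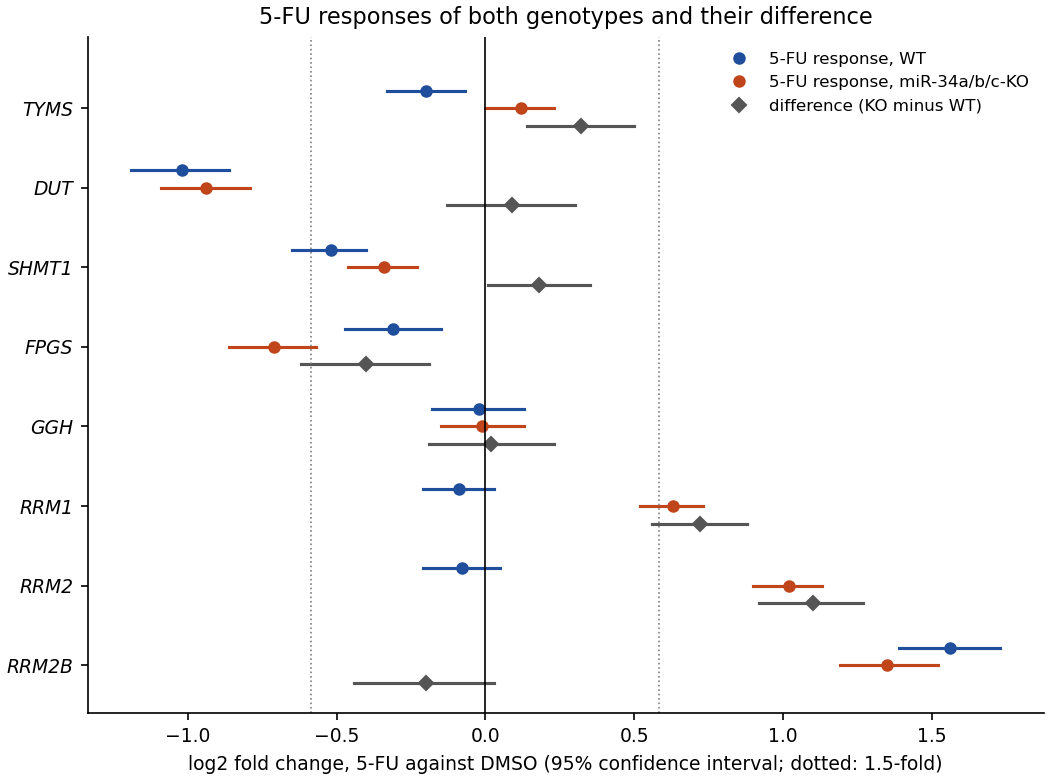
Log2 fold change of each enzyme after 5-FU (horizontal axis) in *WT* (blue) and *KO* cells (red) and their difference (gray diamonds), with 95% confidence intervals. Dotted lines mark 1.5-fold. The differences of RRM1 (0.72) and RRM2 (1.10) lie to the right of zero, whereas those of DUT, GGH and RRM2B span it.

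Among the subunits of ribonucleotide reductase, RRM2B had 121.9, 122.4 and 124.6 CPM in the 3 untreated *WT* libraries and 313.0 and 411.8 CPM with 5-FU. The treated libraries lay far above the untreated ones, but also well apart from each other (362.4 ± 69.9 CPM, SD, n = 2). The increase was 2.95-fold (log2 fold change 1.56, SE 0.08, FDR = 1.14e-10). In *KO* cells, RRM2B had 91.0, 86.3 and 94.3 CPM without and 235.5, 227.6 and 231.6 CPM with 5-FU. These groups did not overlap either, and the increase was 2.56-fold (log2 fold change 1.35, SE 0.08, FDR = 2.37e-10). The responses of the genotypes differed by −0.20 (SE 0.11, 95% confidence interval −0.44 to 0.03, FDR = 0.19). This difference depended on the 2 treated *WT* libraries: it was −0.39 (FDR = 0.000513) without replicate 2 and 0.0053 (FDR = 0.959) without replicate 3. A list of 20 p53 target genes had median log2 fold changes of 2.11 in *WT* and 1.94 in *KO* cells, and RRM2B lay below that median in both genotypes. The median interaction of this list was −0.27, against −0.09 over all genes tested. Of its genes, 1 passed higher and 11 lower for the interaction, beside 10.1% and 16.0% of all genes. CDKN1A, the cyclin-dependent kinase inhibitor p21 of this list, rose 12.4-fold in *WT* and 5.28-fold in *KO* cells. It started from a higher level in *KO* cells (469.4 against 166.9 CPM), and with 5-FU it was higher there as well (2481 against 2078 CPM). MDM2, also of this list, was higher in untreated *KO* cells (192.5 against 140.5 CPM) but lower with 5-FU (811.4 against 1119 CPM). Of the 20 genes, 11 passed higher and 2 lower in *KO* than *WT* cells with 5-FU, beside 21.6% and 28.0% of all genes.

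RRM2 behaved unlike RRM2B. In untreated *WT* cells its levels were 485.6, 522.4 and 466.9 CPM, and with 5-FU they were 442.9 and 487.7 CPM. These ranges overlapped, and the fold change of −0.08 (SE 0.06, 95% confidence interval −0.21 to 0.05, FDR = 0.263) did not pass. In *KO* cells RRM2 had 375.3, 389.7 and 364.8 CPM without and 766.2, 765.0 and 753.6 CPM with 5-FU. Every treated library exceeded every untreated one, and RRM2 rose 2.02-fold (log2 fold change 1.02, SE 0.05, FDR = 1.12e-10). The difference between the responses was 1.10 (SE 0.08, 95% confidence interval 0.92 to 1.27, FDR = 2.11e-07), the largest in size among the 8 enzymes.

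RRM1, the large subunit, had 210.6, 217.5 and 199.2 CPM in untreated *WT* cells and 187.6 and 205.2 CPM with 5-FU. Again the ranges overlapped (log2 fold change −0.09, SE 0.06, 95% confidence interval −0.21 to 0.03, FDR = 0.176), although without replicate 3 of treated *WT* cells RRM1 passed (−0.15, FDR = 0.0268). In *KO* cells RRM1 went from 162.9, 160.7 and 157.4 CPM to 248.5, 247.6 and 247.3 CPM, a 1.55-fold increase (log2 fold change 0.63, SE 0.05, FDR = 2.03e-08). The difference between the responses was 0.72 (SE 0.08, 95% confidence interval 0.56 to 0.88, FDR = 6.15e-06). With the 1.5-fold minimum placed inside the test, RRM2 was still called for the interaction, but RRM1 was not (FDR = 0.314), and neither was its rise in *KO* cells (FDR = 0.353).

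The ratio of counts within a library does not depend on scaling. For RRM2B over RRM2 it was 0.251, 0.234 and 0.267 in untreated *WT* cells and 0.242, 0.221 and 0.258 in untreated *KO* cells, ranges that overlapped. With 5-FU it was 0.707 and 0.844 in *WT* but 0.307, 0.297 and 0.307 in *KO* cells. The treated *WT* libraries thus had, relative to RRM2, more than 2 times the RRM2B counts of the treated *KO* libraries (mean 0.775 against 0.304). RRM2 over RRM1 was between 2.31 and 2.4 in untreated *WT*, 2.36 and 2.38 in treated *WT* and 2.30 to 2.42 in untreated *KO* libraries, and stood apart only in treated *KO* libraries, at 3.05 to 3.09. Per kilobase of exon, RRM2B made up 29.8% ± 1.35 (SD, n = 3) of the small-subunit level (RRM2 plus RRM2B) in untreated *WT*, 29.0% ± 1.59 (SD, n = 3) in untreated *KO*, 34.1% ± 0.42 (SD, n = 3) in treated *KO* and 56.7% ± 3.09 (SD, n = 2) in treated *WT* cells. These shares rest on the length used, the union of all annotated exons. With the length of the MANE Select transcripts they were 14.6%, 14.1%, 17.2% and 34.6%, in the same order. The ratios are descriptions, and were not tested.

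**Figure D3:**
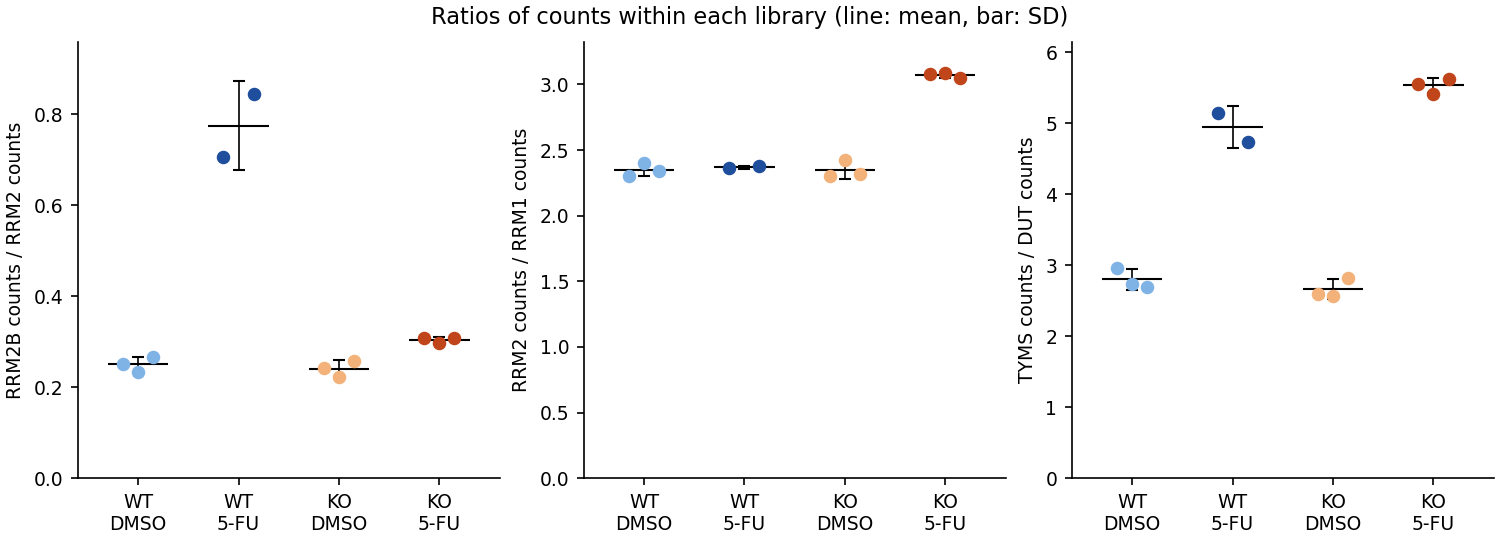
Ratios of counts within each library (vertical axes, from 0): RRM2B to RRM2, RRM2 to RRM1 and TYMS to DUT. Points are libraries, lines means and bars SD. RRM2B to RRM2 reached 0.707 and 0.844 in *WT* cells with 5-FU and stayed at or below 0.307 in all other libraries.

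The 40 S-phase genes that Seurat lists (without the 8 enzymes and the pathway genes below) had a median log2 fold change of −0.85 after 5-FU in *WT* cells, where 33 were called lower and 0 higher, and of 0.10 in *KO* cells, where 5 were called in each direction. Their median interaction was 0.91, with 33 called higher and 0 lower, against −0.09 over all genes tested. RRM1 and RRM2 lay above that list's median in *WT* cells, where they did not pass, and in *KO* cells, where they rose. For the interaction, RRM1 (0.72) lay below the list's median of 0.91 and RRM2 (1.10) above it. The part of cell-cycle composition in their levels was not tested.

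Of the thymidylate enzymes, TYMS had 281.3, 298.5 and 261.7 CPM in untreated *WT* cells and 242.6 and 244.5 CPM with 5-FU. The treated libraries lay just below the untreated ones, and TYMS fell 1.15-fold (log2 fold change −0.20, SE 0.06, FDR = 0.00967). In *KO* cells it had 190.5, 199.6 and 199.3 CPM without and 213.5, 222.7 and 202.7 CPM with 5-FU. Here the treated libraries lay above the untreated ones, but the fold change of 0.12 (SE 0.06, FDR = 0.0819) did not pass. It did pass with TMM factors (0.16, FDR = 0.0157), with DESeq2 (0.17, FDR = 0.00328), without the filter on low counts, when only the groups compared were fitted, and without replicate 3 of treated *KO* cells. The responses differed by 0.32 (SE 0.08, 95% confidence interval 0.14 to 0.50, FDR = 0.0102). The protein of TYMS was not measured here. TYMS shares its locus with ENOSF1, which runs on the opposite strand and overlaps its 3′ end. ENOSF1 passed in none of the 5 comparisons (1132 to 2147 counts), and TYMSOS, antisense to the promoter, had at most 67 counts. Since the use of strand in counting is not stated, reads from the overlap cannot be assigned to a strand.

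DUT fell in both genotypes. It went from 94.8, 109.1 and 97.1 CPM to 47.1 and 51.7 CPM in *WT* cells, a fall of 2.03-fold (log2 fold change −1.02, SE 0.08, FDR = 9.39e-09). In *KO* cells it fell from 73.3, 77.8 and 70.5 CPM to 38.4, 41.2 and 36.0 CPM (log2 fold change −0.94, SE 0.07, FDR = 7.92e-09). Neither pair of groups overlapped, and DUT was the only enzyme called lower in both genotypes. The responses differed by 0.09 (SE 0.10, 95% confidence interval −0.13 to 0.30, FDR = 0.571), so a difference of up to 0.30 in size is within the interval. The ratio of TYMS to DUT counts was between 2.70 and 2.97 in untreated *WT* libraries and 4.73 and 5.15 with 5-FU, and went from between 2.57 and 2.83 to between 5.41 and 5.63 in *KO* libraries. No single DUT pseudogene had more than 5 counts in any library.

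Among the folate enzymes, SHMT1 had 77.0, 74.3 and 72.8 CPM in untreated *WT* cells and 53.1 and 50.8 CPM with 5-FU, a fall by 0.52 on the log2 scale (SE 0.06, FDR = 1.19e-06). In *KO* cells it went from 55.3, 58.6 and 56.0 CPM to 42.9, 45.8 and 45.1 CPM, a fall by 0.34 (SE 0.05, FDR = 3.89e-05). All treated libraries lay below the untreated ones of their genotype, and the difference between the responses, 0.18 (SE 0.08, 95% confidence interval 0.01 to 0.35, FDR = 0.109), did not pass. It passed with TMM factors (0.24, FDR = 0.0386) and with DESeq2 (0.26, FDR = 0.0216).

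FPGS had 56.2, 51.8 and 52.5 CPM in untreated *WT* cells and 46.9 and 39.2 CPM with 5-FU (log2 fold change −0.31, SE 0.08, FDR = 0.00225). It fell more in *KO* cells, from 90.9, 92.5 and 86.8 CPM to 54.1, 58.1 and 52.3 CPM, or 1.64-fold (log2 fold change −0.71, SE 0.07, FDR = 1.29e-07), a call lost with the 1.5-fold minimum inside the test (FDR = 0.0646). The responses differed by −0.40 (SE 0.10, 95% confidence interval −0.62 to −0.19, FDR = 0.00798). This was the only enzyme for which the untreated *KO* libraries stood well above all others, and with 5-FU they overlapped the range of untreated *WT* cells. The size of the difference rested on the treated *WT* libraries: it was −0.26 without replicate 2 and −0.53 without replicate 3, and passed both times. The fall in *WT* cells was −0.45 and −0.19 in the same order, and also passed both times.

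GGH, which opposes FPGS, moved least. It had 45.7, 46.7 and 47.3 CPM in untreated and 41.8 and 50.1 CPM in treated *WT* cells, ranges that overlapped (log2 fold change −0.02, 95% confidence interval −0.18 to 0.13, FDR = 0.815), although without replicate 3 of the treated libraries GGH passed (−0.15, FDR = 0.0497). In *KO* cells it had 53.4, 51.7 and 54.6 CPM without and 54.8, 50.9 and 53.5 CPM with 5-FU, which overlapped as well (log2 fold change −0.01, 95% confidence interval −0.15 to 0.13, FDR = 0.946).

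Next, the genotypes were compared without treatment and with 5-FU. These comparisons share their libraries with those above, so that a higher response and a lower untreated level of the same gene are not separate results. In DMSO, all 8 enzymes passed, 6 lower and 2 higher in *KO* cells, beside 21.9% and 24.5% of all genes. Of these, only FPGS (higher) exceeded 1.5-fold, and no enzyme was called lower (0 with DESeq2 as well), where 9.10% and 4.97% of all genes were called. FPGS was 1.68-fold higher (log2 fold change 0.75, SE 0.07, FDR = 1.69e-07) and GGH 1.14-fold higher (0.19, SE 0.07, FDR = 0.0249). GGH did not pass with DESeq2 (FDR = 0.0532), without the filter on low counts (FDR = 0.061) or without replicate 1 or 2 of *WT* or 1 or 3 of *KO* cells (FDR up to 0.0859). The other 6 were lower by 0.38 to 0.51 on the log2 scale. TYMS differed most among them (−0.51, SE 0.06, FDR = 1.58e-06), followed by DUT (−0.44, SE 0.07) and RRM2B (−0.44, SE 0.08), SHMT1 (−0.40, SE 0.05), RRM1 (−0.38, SE 0.05) and RRM2 (−0.38, SE 0.05). The S-phase genes had a median of −0.45 in the same comparison, with 36 of 40 passing lower and 0 higher. The 20 p53 target genes went the other way, unlike RRM2B, with a median of 0.48, 17 passing higher and 0 lower. The median over the 8 enzymes was −0.39, and over all genes tested 0.03. With 1 RUVg factor, FPGS was no longer called (0.32, FDR = 0.226), RRM2B was at 0.07, and 3 of the 8 enzymes (TYMS, SHMT1 and GGH) had an unadjusted p under 0.05.

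With 5-FU, the order changed. RRM2 was called 1.64-fold higher (log2 fold change 0.71, SE 0.06, FDR = 1.13e-07) and RRM2B 1.56-fold lower (−0.65, SE 0.08, FDR = 7.46e-06) in *KO* cells, where 7.58% of all genes were called higher and 10.6% lower. All 8 enzymes passed, 4 in each direction, beside 21.6% higher and 28.0% lower among all genes. RRM1 (0.34, SE 0.06), FPGS (0.35, SE 0.08) and GGH (0.21, SE 0.07) were higher, and TYMS (−0.19, SE 0.06), SHMT1 (−0.22, SE 0.06) and DUT (−0.36, SE 0.08) lower. RRM1 and RRM2 were thus lower than in *WT* cells without 5-FU and higher with it, while DUT, SHMT1, TYMS and RRM2B were lower and FPGS and GGH higher in both conditions. Without replicate 3 of treated *WT* cells, RRM2B was lower by 0.44 (FDR = 3.9e-06) and no longer called. GGH was higher by 0.08 (FDR = 0.311, not passing) without replicate 2 and by 0.34 without replicate 3 of these cells, and FPGS by 0.23 (FDR = 0.0137) without replicate 3. GGH also did not pass without replicate 1 or 3 of treated *KO* cells, with a block by the header numbers or with only the groups compared (FDR 0.0608 to 0.0912), and TYMS did not without replicate 3 of treated *KO* cells (−0.16, FDR = 0.0678). Neither RRM2 nor RRM2B was called with the 1.5-fold minimum inside the test.

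To place these differences beside those of neighboring genes, up to 20 tested genes on either side of each enzyme were examined in the untreated comparison (14135 of 16123 tested genes had 1 position in GENCODE 44, GRCh38). FPGS lies on chromosome 9 (127794597 to 127814327). Of its 40 neighbors, 36 were higher in *KO* cells, with a median log2 fold change of 0.47. The 20 on the side of higher coordinates had a median of 0.74, near the 0.75 of FPGS itself, and 19 of them were higher, whereas the 20 on the other side had a median of 0.14. RRM2B lies on chromosome 8 (102204502 to 102238961, minus strand). There, 18 of the 20 neighbors with higher coordinates were lower in *KO* cells (median −0.68) and 16 of the 20 with lower coordinates were higher (median 0.27), with RRM2B at −0.44. With 5-FU these sides of RRM2B had medians of −0.70 and 0.20. The 40 neighbors of FPGS then had a median of 0.35, with FPGS itself at 0.35. In DMSO, the neighbors of the other enzymes had medians from −0.13 (RRM2) to 0.22 (RRM1), and TYMS was lower than all 24 of its neighbors. For the interaction, neighbors had medians of −0.19 for FPGS (28 of 40 lower), −0.26 for RRM1, −0.15 for RRM2 and 0.04 for TYMS. The enzymes themselves were at −0.40, 0.72, 1.10 and 0.32, and the median over all genes tested was −0.09. DNA was not measured here, and the part of chromosomal position in these differences was not tested.

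**Figure D4:**
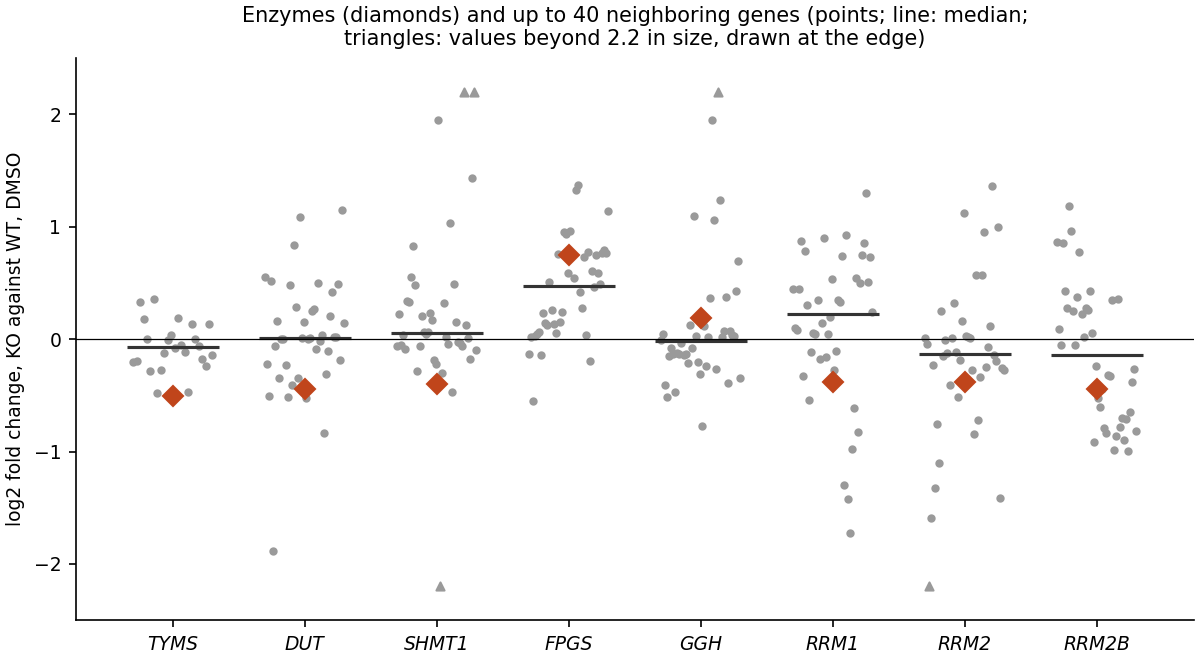
Log2 fold change of *KO* against *WT* cells in DMSO (vertical axis) for each enzyme (diamonds) and up to 40 neighboring tested genes in chromosomal order (points; lines: medians). Triangles stand for values beyond the axis. The neighbors of FPGS lie mostly above zero (median 0.47), and those of RRM2B fall from above to below zero along the chromosome.

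The levels of the 8 enzymes were also compared with each other per kilobase of exon (union of all annotated exons). In untreated *WT* cells, TYMS was highest with 115.9 ± 7.60 CPM per kb (SD, n = 3), followed by RRM2 (53.7 ± 3.08) and RRM1 (49.4 ± 2.18), whose libraries overlapped. DUT (27.3), RRM2B (22.8), FPGS (13.6), SHMT1 (10.6) and GGH (4.38) followed without overlap. In *WT* cells with 5-FU, RRM2B (67.2 ± 13.0, SD, n = 2) came directly after TYMS (100.6), above RRM2 (50.8) and RRM1 (46.4), which overlapped. In untreated *KO* cells the order was TYMS (81.2), RRM2 (41.2), RRM1 (37.9), FPGS (22.9), DUT (20.1), RRM2B (16.8), SHMT1 (8.08) and GGH (5.01), without overlap between neighbors in the order. In *KO* cells with 5-FU, TYMS (88.0, lowest library 83.7) and RRM2 (83.2, highest library 83.7) met at the top, followed by RRM1 (58.5), RRM2B (43.0), FPGS (13.9), DUT (10.5), SHMT1 (6.36) and GGH (4.99). These orders depend on the length. With that of the MANE Select transcript (1248 bases for GGH, against 10619 for all its exons), GGH moved from the last place to a middle place in each group, RRM2 was above RRM2B in every group, and in treated *KO* cells RRM2 (233.8 CPM per kb) was above TYMS (132.0).

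Of the 11573 genes with a mean of at least 5 CPM, those whose log2 profile over the 11 libraries lay closest to each enzyme were listed, as a description. The measure is the root mean square of the log2 differences between the centered profiles. The polymerase subunit gene POLA1 came closest to DUT (0.057, where the profile of DUT itself varied by 0.549), followed by HMGB1 (0.058) and the cyclin gene CCNB2 (0.062). For RRM2 these were PRRG4 (0.091), the replication gene GINS4 (0.094) and DDIAS (0.099), against a variation of 0.387. RRM1 was closest to MGME1 (0.054), SMIM13 (0.056) and STRIP2 (0.067). TYMS was closest to ADAP2 (0.053), CKS1B (0.064) and PA2G4 (0.068). For RRM2B they were KLK7 (0.118), LMO7 (0.119) and TSPAN14 (0.137), against a variation of 0.745. SHMT1 had EIF4A3 (0.049), SRPK1 (0.057) and ETS2 (0.058). For FPGS they were HERPUD1 (0.085), MFAP2 (0.086) and CADM4 (0.092), and for GGH TRIP11 (0.032), CLTC (0.033) and RSPRY1 (0.041). GGH itself varied by 0.118, so that any flat profile is close to it.

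Finally, 43 other genes of the same pathways were examined as 5 lists, of which 41 were tested (FTCD had at most 8 counts and FOLR2 none). After 5-FU, 10 passed higher and 17 lower in *WT* cells (median −0.14), beside 31.9% and 28.3% of all genes, and 11 higher and 15 lower in *KO* cells (median −0.07), beside 26.6% and 33.8%. The interaction passed for 7 in the higher and 10 in the lower direction (median −0.01), beside 10.1% and 16.0%. The genes named are those with the largest changes past the threshold in each list, among the genes reported singly here.

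Among 16 one-carbon folate enzymes, 2 passed higher and 7 lower after 5-FU in *WT* cells (31.9% and 28.3% of all genes), and 4 and 8 in *KO* cells (26.6% and 33.8%). MTR, the methionine synthase, fell by 0.66 and 0.85 in *WT* and *KO* cells. ALDH1L1, the cytosolic 10-formyltetrahydrofolate dehydrogenase, had between 2 and 10 counts in untreated and 99 and 163 counts in treated *WT* libraries, and between 7 and 18 without and between 62 and 70 with 5-FU in *KO* libraries, with log2 fold changes of 4.39 (SE 0.41) and 2.29 (SE 0.34). At these counts the size of its change is poorly fixed. DHFR2 passed only in *KO* cells (−0.61, FDR = 0.000287), as did ALDH1L2 (0.58, FDR = 0.044), and for both the interaction did not pass (FDR = 0.0588 and 0.754).

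Of the 4 folate carriers tested, SLC46A1, the proton-coupled folate transporter, rose from 34.2 to 54.7 CPM in *WT* (1.59-fold, FDR = 3.13e-06) and from 33.3 to 87.0 CPM in *KO* cells (2.62-fold, FDR = 1.62e-10). The interaction was 0.72 (SE 0.11, FDR = 0.000258). FOLR1, a folate receptor, moved in opposite directions, from 8.75 to 11.6 CPM in *WT* (log2 fold change 0.40, FDR = 0.0224) and from 11.1 to 6.91 CPM in *KO* cells (−0.68, FDR = 0.000405), with an interaction of −1.09 (SE 0.20, FDR = 0.000878). SLC25A32, the mitochondrial folate carrier, fell in *WT* cells only (−0.30, FDR = 0.000485) and had an interaction of 0.25 (FDR = 0.0347).

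Among the salvage genes and nucleotide kinases, DCK, the deoxycytidine kinase that makes deoxynucleotides by salvage, had 61.8, 61.8 and 62.4 CPM in untreated *WT* cells and 27.7 and 36.3 CPM with 5-FU (−0.96, SE 0.09, FDR = 1.18e-07), but 46.9, 46.8 and 43.3 CPM without and 49.1, 51.2 and 49.6 CPM with 5-FU in *KO* cells (0.13, SE 0.08, FDR = 0.162). Its interaction of 1.09 (SE 0.12, FDR = 7.65e-06) was close to the 1.10 of RRM2, although DCK fell in *WT* cells and RRM2 rose in *KO* cells. CMPK1, the UMP/CMP kinase, fell by 0.32 in *WT* and rose by 0.15 in *KO* cells (interaction 0.47, FDR = 0.00147). DTYMK, which phosphorylates dTMP, fell in both (−0.37 and −0.17), whereas DCTD, which deaminates dCMP to dUMP, rose by 0.23 in *WT* cells and had an interaction of −0.32 (FDR = 0.00257). The nucleoside diphosphate kinase genes NME1 (0.50 and 0.58) and NME2 (−0.18 and −0.60) share exons through a readthrough transcript and are uncertain. Over the 10 salvage genes and kinases, 3 passed higher and 4 lower in *WT* cells (31.9% and 28.3% of all genes), and 3 and 2 in *KO* cells (26.6% and 33.8%).

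Among 7 genes that remove deoxynucleotides, 2 passed higher and 4 lower in *WT* (31.9% and 28.3% of all genes) and 2 higher and 3 lower in *KO* cells (26.6% and 33.8%). SAMHD1, a dNTP hydrolase, rose in both (0.68, FDR = 3.49e-07, and 0.71, FDR = 6.56e-08). The deoxynucleotidase genes NT5M (−1.29 and −1.36) and NT5C (−0.71 and −1.04) fell in both, as did DCTPP1 (−0.34 and −0.43). ITPA had an interaction of −0.33 (FDR = 0.0127). Of the 4 genes of pyrimidine and CTP synthesis, 1 passed higher and 1 lower in *WT* (31.9% and 28.3% of all genes) and likewise in *KO* cells (26.6% and 33.8%). CTPS1 rose (0.30 and 0.57) and CTPS2 fell (−0.35 and −0.72) in both, while the other 2 passed in neither genotype.

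**Figure D5:**
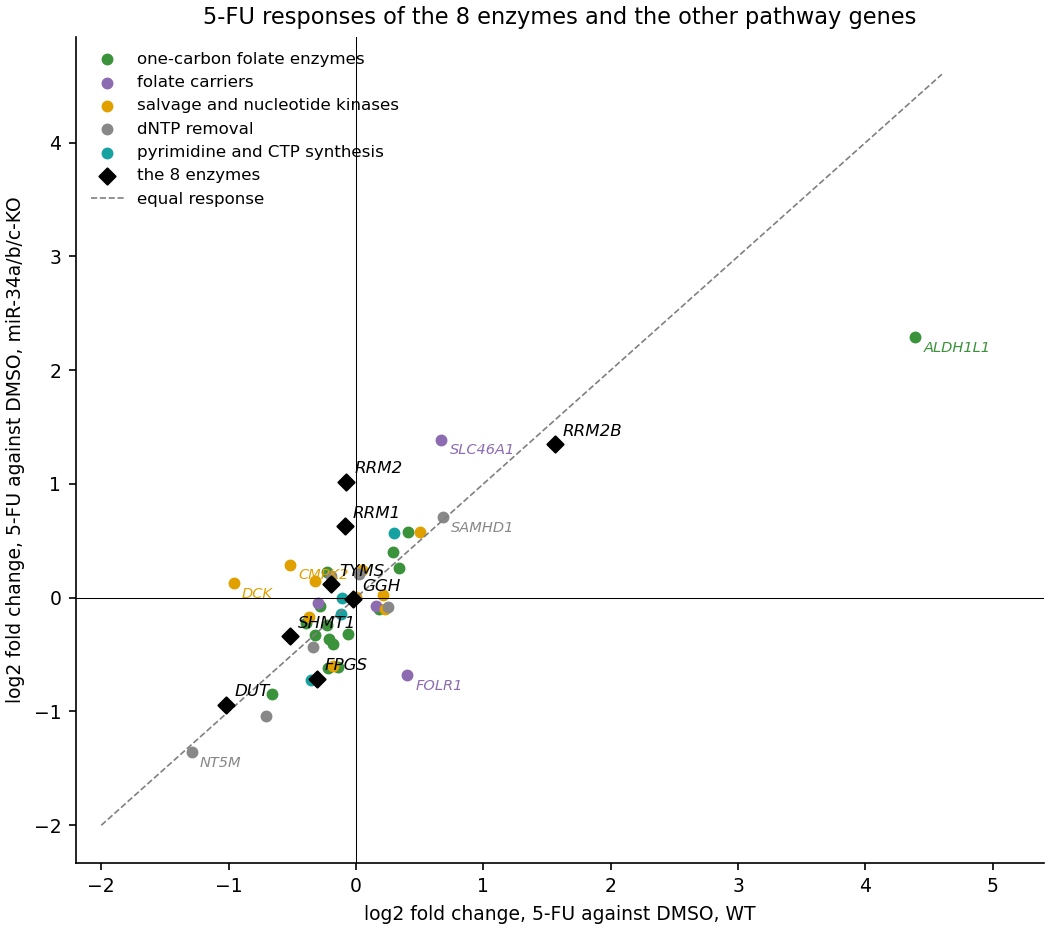
Log2 fold change after 5-FU in *WT* cells (horizontal axis) and *KO* cells (vertical axis) for the 8 enzymes (black diamonds) and 41 other pathway genes (points, colored by list). The dashed line marks equal responses. RRM2, RRM1, DCK and SLC46A1 lie above it and FOLR1 and ALDH1L1 below it.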

How the data were processed

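Total RNA of *WT* and *miR-34a/b/c-KO* (*KO*) HCT116 cells was sequenced by the authors (150-base read pairs, Illumina NovaSeq) and mapped to GRCh38/hg38 with ENSEMBL annotation in CLC Genomics Workbench. The deposited files hold raw counts per gene symbol, 1 file per library. From these, counts of 11 libraries were analysed. The 16123 genes that reached 20 counts in any library were fitted with edgeR (version 4.0.16, quasi-likelihood F-test, upper quartile factors, 1 mean per group), p-values were adjusted by Benjamini-Hochberg over all genes, and calls needed FDR under 0.05 and a fold change over 1.5. log2 CPM used a prior count of 2. On simulated counts of these genes, with 1 fixed spread for all, 100% of 200 well-counted genes changed 2-fold were recovered between untreated and treated *WT* libraries. Smaller changes, and changes of genes with few counts, were not simulated. Alternatives were TMM factors, other filters, a minimum fold change inside the test, 1 RUVg factor, a replicate block, only the groups compared, each library left out, and DESeq2 (1.42.0). A pair was added after seeing the data: a block by the numbers in the file headers, and MANE Select lengths. Sequences came from RefSeq tables (GRCh38.p14) and GENCODE 44. The 8 enzymes, the gene lists and the tests were chosen with earlier results of these data known. Named pathway genes were up to 6 per list, by the largest 5-FU or interaction change past FDR 0.05. Some genes of these lists enter the counts but are not reported singly here. For treated *WT* cells the headers of both files used carry other replicate numbers than the labels, which were followed.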

Additional observations from a re-analysis of the deposited data

Results flagged for a closer look

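The response to 5-FU differed between the genotypes, by the interaction test at an FDR under 0.05, for 4 of the 8 enzymes (3 higher and 1 lower), beside 10.1% and 16.0% of all genes. Given as the log2 response in *KO* minus that in *WT* cells, the differences were 1.10 for RRM2, 0.72 for RRM1, 0.32 for TYMS and −0.40 for FPGS. The 40 chromosomal neighbors of FPGS had a median of −0.19 for the interaction, against −0.09 over all genes tested.

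Among the other pathway genes reported singly here, the same test found a higher response in *KO* cells for DCK (1.09), SLC46A1 (0.72), CMPK1 (0.47), CTPS1 (0.26) and SLC25A32 (0.25). It found a lower one for ALDH1L1 (−2.10), FOLR1 (−1.09), NME2 (−0.41), CTPS2 (−0.38), NT5C (−0.33), ITPA (−0.33), DCTD (−0.32), SHMT2 (−0.26) and MTHFD1L (−0.22). ALDH1L1 had between 2 and 10 counts in untreated *WT* libraries, so that the size of its difference is poorly fixed. With 5-FU it did not differ between the genotypes past the threshold (−0.56, FDR = 0.134). NME2 is uncertain because of the readthrough transcript. Groups of 2 or 3 libraries were too small to look for single outlying libraries.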

How the results depend on the processing

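Of 752 recomputed log2 fold changes of the 8 enzymes outside the RUVg fit, 735 kept direction and call, 6 lost the call and 11 changed sign. Part of this agreement was fixed in advance. Fits without 1 library gave 440 of these values, and some left out a library of neither group compared, which could hardly move the value. The 1.5-fold minimum inside the test keeps the same fold changes. Moves across FDR 0.05 at under 1.5-fold do not count as a lost call. The sign changes were of values near 0: GGH after 5-FU in *WT* (−0.15 to 0.10 when each library was left out) and in *KO* cells (−0.03 to 0.02 likewise, 0.04 with TMM, 0.03 without the filter and 0.05 with DESeq2), the interaction of GGH (−0.11 to 0.15, and −0.0045 with 20 counts in every library) and that of RRM2B (−0.39 to 0.0053). With 1 RUVg factor, 0 enzymes were called higher or lower after 5-FU in either genotype, 0 higher in DMSO, 0 lower in 5-FU and 1 (RRM2) for the interaction, and 7 values changed sign: GGH (2.34, 2.09 and interaction −0.25), RRM1 (1.54) and RRM2 (1.5) in *WT*, RRM2B in DMSO (0.07) and the interaction of DUT (−0.02). With the 1.5-fold minimum inside the test, 2 enzymes were higher (RRM1 lost) and 1 lower (FPGS lost) after 5-FU in *KO* cells, 0 and 0 differed between genotypes in 5-FU and 1 had a higher interaction. With no minimum fold, 4 were lower after 5-FU in *WT*, 2 higher and 6 lower in DMSO, 4 and 4 in 5-FU, and 1 had a lower interaction. Leaving out each library gave 0 to 1 enzymes called lower in *KO* than *WT* cells with 5-FU, and the counts of the report in all other cases.

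No pairing by the replicate numbers of the labels was seen. Deviations from the group means correlated at −0.091 to 0.078 between same-numbered libraries (15 pairs) and at −0.15 to 0.15 between the others (30 pairs). With groups of 2 or 3 libraries these correlations depend on each other, so they cannot exclude a weak pairing. With a replicate block, the counts of called enzymes were 1 higher and 1 lower after 5-FU in *WT*, 3 and 2 in *KO* cells, 1 and 0 in DMSO, 1 and 1 in 5-FU and 2 and 0 for the interaction, as without it, while over all genes the calls after 5-FU in *WT* cells went from 2978 to 2901 higher and from 1512 to 1496 lower. Numbers of the file headers gave the same enzymes' counts (correlations −0.15 to 0.044).

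Treated *WT* cells had 2 libraries, which differed for RRM2B, FPGS and GGH. TMM and DESeq2 scaling moved the median of all genes by at most 0.0786. Levels per length depend on the exons counted. RNA was measured, not protein, enzyme activity or DNA, and whether replicates are different clones is not given in the sources used here.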

Other observations

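Genotype differences of some other pathway genes were larger than those of the 8 enzymes. SLC25A32 was lower in *KO* cells by 0.98 in DMSO and by 0.73 with 5-FU (FDR = 9.5e-10 and 9.85e-08). It is one of the 20 neighbors on the side of RRM2B with higher coordinates. DTYMK was higher by 0.81 and 1.01 (FDR = 1.08e-07 and 5.01e-08). CMPK2, a mitochondrial nucleotide kinase gene and one of the neighbors of RRM2, was lower by 2.70 and 1.89 log2 units. It had 10 to 16 counts in untreated and 16 to 17 in treated *KO* libraries, against 87 to 112 and 79 to 82 in *WT* libraries. At these counts the sizes are poorly fixed. CMPK2 was chosen after its values were seen.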
